A study of Oryza sativa with 12 samples.

Results

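Whether the response of rice leaf blades to low phosphate (Pi) depends on the chromatin protein OsHMGB1 was read from 12 mRNA libraries, all 12 libraries of the series. They formed 4 groups of 3 libraries: Oshmgb1 mutant plants at low Pi, mutant plants at high Pi, wild-type (WT) plants at low Pi and WT plants at high Pi. Every plant was 21 d old; low-Pi plants had 14 d of high Pi followed by 7 d of low Pi, and high-Pi plants had 21 d of high Pi, with days of 12 h of light at 30 °C and nights at 22 °C. The labels give 200 µM for high and low Pi alike, so the strength of the low-Pi treatment is not clear here, and they do not say which kind of mutation the mutant carries or whether it is 1 line. The labels do not say that the 3 libraries of a group came from separate plants; the p-values below reflect the spread between these libraries, and that spread may be technical. Of 32846 genes in the deposited tables, 17630 with an FPKM (a fragment count normalised for transcript length and library size) of 1 or more in 3 or more libraries were compared.

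HMGB proteins are small, abundant nuclear proteins that bind DNA with little sequence preference and bend it, which changes how other factors reach chromatin. Plants short of Pi release it from organic compounds, replace membrane phospholipids with galactolipids and sulfolipids, and retune growth, sugar use and photosynthesis. SPX proteins, which sense inositol pyrophosphates, and PHR-type MYB factors are central to that response. The quantity described here is the interaction, which subtracts WT's response to low Pi from the mutant's, each response being low minus high Pi on log2(FPKM + 1). A positive interaction means that low Pi moved a transcript further up, or less far down, in the mutant than in WT.

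The library checks were brief. FPKM summed to 549457 to 583292 per library, and the read depth behind these values is unknown. Transcripts of the 17 loci described as chlorophyll A-B binding proteins summed to 23430 to 45040 FPKM and those of 4 loci for the small subunit of Rubisco to 6454 to 16950 FPKM, while the 7 loci with root descriptions stayed under 1 FPKM in every library. LOC_Os06g51220, an HMG1/2 locus that outside knowledge (not the files) identifies as OsHMGB1, stood at 726, 587 and 721 FPKM in the mutant at low Pi against 552, 516 and 548 at high Pi, and in WT at 1747, 1790.2 and 2147 FPKM at low Pi against 1177, 1308 and 1211 at high Pi. Its transcript was lower in all 6 mutant libraries than in any WT library and was present in all of them. LOC_Os06g51220 responded to low Pi by 0.33 in the mutant and by 0.62 in WT on the log2 scale (interaction −0.29, SE 0.19, adjusted p = 0.457). It rose at low Pi in WT (adjusted p = 0.0121) and its 95% confidence interval for the interaction ran from −0.70 to 0.12. Among 7 tested loci of the HMG list, which includes it, 0 had a called interaction, which for so few loci is near the 3.64% of all genes. The smallest p belonged to LOC_Os09g37910 (−0.90 in the mutant and 0.42 in WT, interaction −1.32, SE 0.40, adjusted p = 0.0942).

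The interaction passed the test in 641 of the 17630 genes (limma moderated test, two-sided, Benjamini-Hochberg adjusted p below 0.05), which is 3.64% of genes tested. It was positive (higher) for 263 (1.49%) and negative (lower) for 378 (2.14%). An interaction of at least 1 in absolute log2 was called in 354 genes (2.01%), 192 of them higher and 162 lower. At an unadjusted p below 0.05 there were 3332 genes, 18.9% of those tested. The split between directions depended on how the libraries were scaled: 41.0% of called genes were higher on the deposited FPKM, 53.2% after median-of-ratios scaling (357 higher and 314 lower) and 46.7% after upper-quartile scaling (318 higher and 363 lower). The called number also moved with single libraries. It was 340 without library 1 and 281 without library 2 of the mutant at low Pi, and 298 without library 2 of the mutant at high Pi. It was 420 without library 2 and 304 without library 3 of WT at low Pi, and 259 without library 2 and 370 without library 3 of WT at high Pi. For 238 genes (1.35%), 111 higher and 127 lower, the interaction was called with all libraries and in each of the 12 fits that left out 1 library, and unless stated otherwise each gene with a called interaction below is among these 238.

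The fitted responses of the 2 genotypes had opposite signs in 585 of 641 called genes (91.3%), against 39.7% of all genes tested; both responses passed the test in 126 of these, and choosing genes on the interaction favours opposite signs. The fitted response was positive in the mutant and negative in WT in 237 of these genes, and the reverse held in 348. Sorted by which response passed the test on its own, 126 genes crossed over (both responses called, with opposite signs), 156 lost the response (called in WT alone) and 326 gained one (called in the mutant alone). Another 10 genes had an amplified and 4 a damped response of the same sign, and in 19 genes neither response was called. A response that was not called may lie close to the threshold, often with the opposite sign. Lost and gained therefore do not mean that 1 genotype had no response. Of the crossover genes 105 had an interaction that was called in every fit without 1 library, against 35 of the lost and 92 of the gained genes. Crossover genes need 2 called responses of opposite sign, which favours large interactions, so this comparison follows in part from the classes. Their median absolute interaction was 1.57, against 1.09 in lost and 0.99 in gained genes. The median absolute response in crossover genes was 0.74 in the mutant and 0.76 in WT. In lost genes it was 0.31 in the mutant and 0.80 in WT, and in gained genes it was 0.76 in the mutant and 0.25 in WT; these medians follow from how the classes were made.

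**Figure D1:**
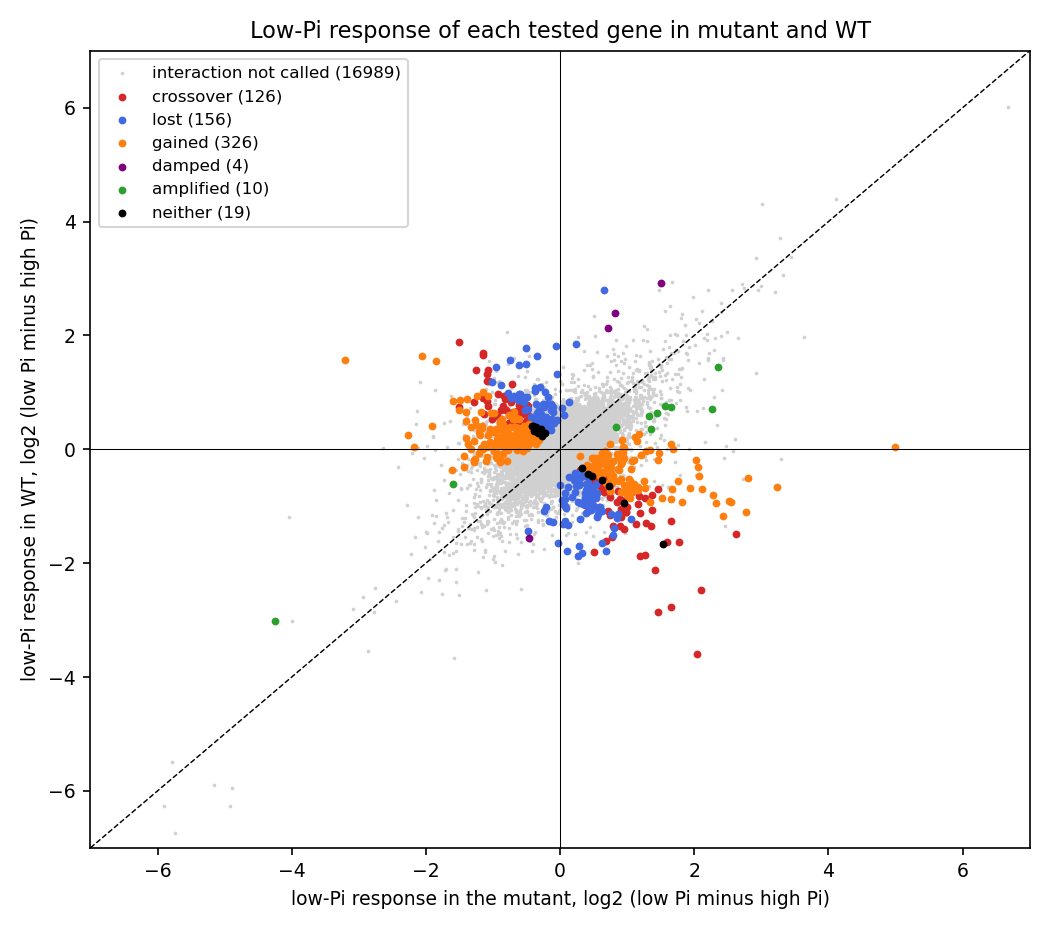
Low-Pi response of each of the 17630 tested genes in the mutant (x axis) and in WT (y axis), as log2 of FPKM + 1, low minus high Pi; each point is a gene, colours mark the response class of the 641 genes with a called interaction, and the dashed line marks equal responses. Crossover genes (126) lie in the quadrants of opposite sign, and most gained (326) and lost (156) genes lie there too. The median absolute response is larger in the mutant for gained genes and in WT for lost genes.

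The interaction was called in a limited share of the genes that responded in either genotype. Its standard error is larger than that of either response, so a gene without a called interaction need not respond equally in both. Low Pi changed 3307 genes in the mutant (18.8% of genes tested) and 2345 in WT (13.3%). Of these, 1278 were called in both, 1152 of them in the same direction, 2029 in the mutant alone and 1067 in WT alone. The interaction was called for 466 of the genes that responded in the mutant (14.1%) and for 296 of those that responded in WT (12.6%). Of the genes called in WT, 1883 (80.3%) had a value of the same sign in the mutant. Across all genes tested, the Pearson correlation between the 2 responses was 0.46. The genotypes also differed mostly in the low-Pi plants: among the 641 genes, mutant and WT differed at low Pi alone in 446 (69.6%), at high Pi alone in 70, at both in 65 and at neither in 60. Across all genes, 15.9% differed between mutant and WT at low Pi and 3.58% at high Pi. Where the genotypes differed at both Pi levels, the difference had opposite signs at the 2 levels in 63 of 65 genes; a called interaction favours this too, since it is also the difference between these 2 genotype differences. In these bulk samples, fewer cells of a type and less RNA per cell cannot be told apart.

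The largest crossovers belonged to loci that the tables describe only as expressed protein; the 4 given here were chosen after their values were seen. LOC_Os06g50230 stood at 168, 199.9 and 134 FPKM in the mutant at low Pi against 40.2, 29.04 and 51.6 at high Pi, and in WT at 8.11, 10.4 and 2.41 FPKM at low Pi against 75.8, 99.2 and 81.2 at high Pi. Every mutant low-Pi library was above, and every WT low-Pi library below, all high-Pi libraries. LOC_Os06g50230 responded to low Pi by 2.04 in the mutant and by −3.60 in WT on the log2 scale (interaction 5.64, SE 0.53, adjusted p = 0.000544). LOC_Os02g45930 stood at 159, 188 and 143 FPKM in the mutant at low Pi against 54.4, 40.01 and 91.7 at high Pi, and in WT at 11.8, 9.52 and 7.18 FPKM at low Pi against 87.8, 70.3 and 64.5 at high Pi. No groups overlapped within either genotype. LOC_Os02g45930 responded to low Pi by 1.46 in the mutant and by −2.85 in WT on the log2 scale (interaction 4.31, SE 0.37, adjusted p = 0.00035). LOC_Os05g27780 and LOC_Os04g49370 had the same arrangement at very different levels. LOC_Os05g27780 averaged 988 ± 121 FPKM in the mutant at low Pi, 246 ± 114 in the mutant at high Pi, 123 ± 84.9 in WT at low Pi and 533 ± 64.1 in WT at high Pi (SD, n = 3 each; interaction 4.57, SE 0.78, adjusted p = 0.0113). LOC_Os04g49370 averaged 19.8 ± 7.79 FPKM in the mutant at low Pi against 5.44 ± 1.4 at high Pi, and 0.94 ± 0.75 in WT at low Pi against 11.7 ± 1.14 at high Pi (SD, n = 3 each; interaction 4.42, SE 0.41, adjusted p = 0.000544).

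Among crossover genes with a description, those that rose in the mutant and fell in WT included an expansin and an auxin-responsive gene. LOC_Os03g04020 encodes an expansin, a wall protein that loosens cellulose contacts during cell expansion. LOC_Os03g04020 stood at 72.6, 79.2 and 83.7 FPKM in the mutant at low Pi against 43.9, 28.2 and 19.1 at high Pi, and in WT at 30.1, 18.3 and 10.8 FPKM at low Pi against 73.8, 106 and 71.1 at high Pi. The mutant at low Pi overlapped WT at high Pi, and low- and high-Pi libraries did not overlap within a genotype. LOC_Os03g04020 responded to low Pi by 1.42 in the mutant and by −2.12 in WT on the log2 scale (interaction 3.53, SE 0.48, adjusted p = 0.00425). OsSAUR39 (LOC_Os09g37330) belongs to the small auxin-up RNA family, whose members are early auxin-responsive genes. OsSAUR39 stood at 11.1, 18.3 and 10.9 FPKM in the mutant at low Pi against 8.57, 3.66 and 4.29 at high Pi, and in WT at 1.54, 2.83 and 1.59 FPKM at low Pi against 8.74, 9.6 and 11.2 at high Pi. WT low-Pi libraries were the lowest of all, and the mutant low-Pi libraries exceeded every mutant high-Pi library. OsSAUR39 responded to low Pi by 1.19 in the mutant and by −1.88 in WT on the log2 scale (interaction 3.07, SE 0.39, adjusted p = 0.00296). LOC_Os11g25780 has a PB1 domain, a module that joins proteins to each other. LOC_Os11g25780 stood at 176, 249.6 and 174 FPKM in the mutant at low Pi against 73.5, 52.9 and 62.03 at high Pi, and in WT at 85.00, 37.3 and 32.8 FPKM at low Pi against 100.3, 139 and 106 at high Pi. The groups did not overlap within a genotype, and the mutant low-Pi libraries were the highest of the 12. LOC_Os11g25780 responded to low Pi by 1.65 in the mutant and by −1.26 in WT on the log2 scale (interaction 2.90, SE 0.43, adjusted p = 0.00587). A locus described as a membrane protein, LOC_Os03g51650, averaged 84.7 ± 20.00 FPKM in the mutant at low Pi against 34.5 ± 9.98 at high Pi, and in WT 30.3 ± 5.23 at low Pi against 81.8 ± 37.9 at high Pi (SD, n = 3 each; interaction 2.59, SE 0.46, adjusted p = 0.0123).

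The crossover genes that fell in the mutant and rose in WT included 2 transcription factors and a calcium sensor. LOC_Os09g29460 is described as a homeobox associated leucine zipper protein, the domain pair of the plant HD-Zip factors. LOC_Os09g29460 stood at 39.9, 40.8 and 65.4 FPKM in the mutant at low Pi against 134, 116 and 78.7 at high Pi, and in WT at 189.6, 238 and 227 FPKM at low Pi against 49.2, 58.6 and 103 at high Pi. The WT low-Pi libraries stood above all others, the mutant low-Pi libraries were below every mutant high-Pi library, and the genotypes overlapped at high Pi. LOC_Os09g29460 responded to low Pi by −1.16 in the mutant and by 1.69 in WT on the log2 scale (interaction −2.84, SE 0.40, adjusted p = 0.00524). OsCML10 (LOC_Os01g72100) is a calmodulin-related calcium sensor. OsCML10 stood at 22.9, 16.6 and 27.4 FPKM in the mutant at low Pi against 45.8, 57.3 and 46.8 at high Pi, and in WT at 134, 116 and 164 FPKM at low Pi against 47.6, 32.7 and 49.3 at high Pi. At high Pi the genotypes overlapped, whereas at low Pi all WT libraries were above all mutant libraries by a wide gap. OsCML10 responded to low Pi by −1.15 in the mutant and by 1.66 in WT on the log2 scale (interaction −2.81, SE 0.29, adjusted p = 0.000916). LOC_Os01g71970 is a GRAS factor, of the plant family that includes the DELLA growth repressors. LOC_Os01g71970 stood at 6.55, 7.0 and 7.29 FPKM in the mutant at low Pi against 17.6, 13.7 and 16.6 at high Pi, and in WT at 14.7, 14.8 and 20.3 FPKM at low Pi against 4.94, 5.22 and 8.22 at high Pi. The mutant high-Pi and WT low-Pi libraries formed the upper levels, and the other 2 groups the lower. LOC_Os01g71970 responded to low Pi by −1.09 in the mutant and by 1.32 in WT on the log2 scale (interaction −2.41, SE 0.25, adjusted p = 0.000923). LOC_Os08g37370, a mitochondrial carrier of the kind that moves metabolites across the inner membrane, had a weaker rise in WT than its fall in the mutant. LOC_Os08g37370 responded to low Pi by −1.51 in the mutant and by 0.75 in WT on the log2 scale (interaction −2.26, SE 0.29, adjusted p = 0.00318). LOC_Os04g33030, described only as a protein binding protein, moved by −1.05 in the mutant and 1.19 in WT (interaction −2.25, SE 0.24, adjusted p = 0.00103).

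**Figure D2:**
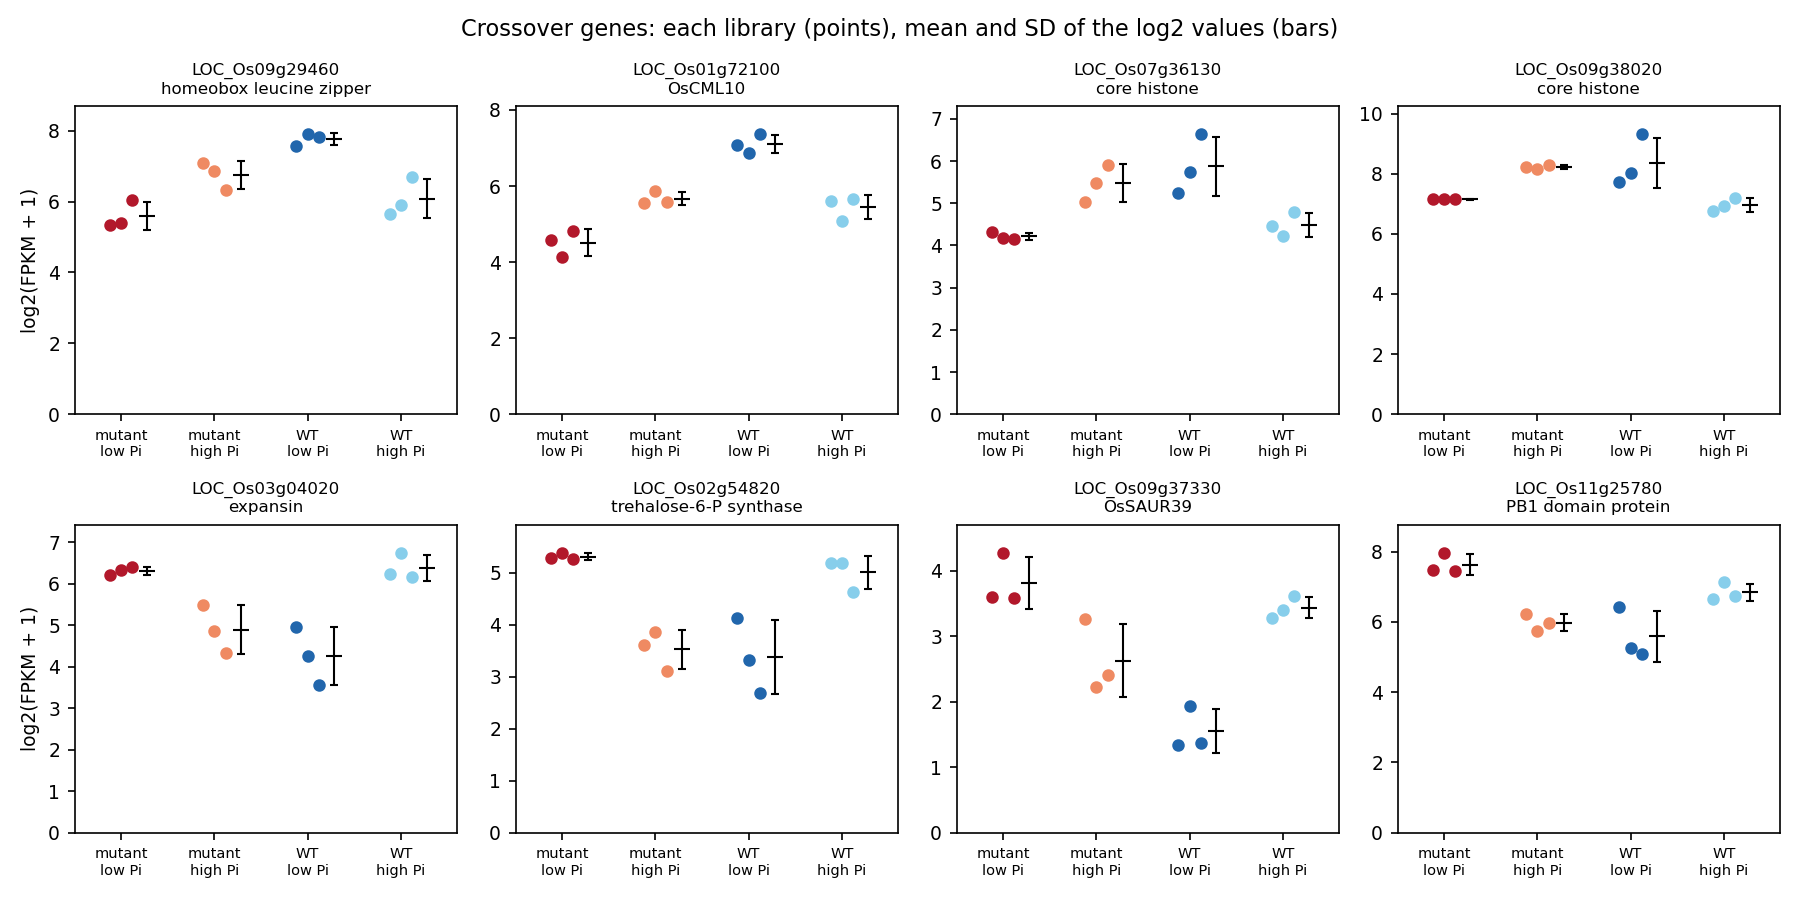
Level of 8 crossover genes as log2(FPKM + 1) in each library (points; mutant at low Pi, mutant at high Pi, WT at low Pi, WT at high Pi, 3 libraries each), with the mean and SD of the log2 values as bars. In the upper row low Pi lowered the transcript in the mutant and raised it in WT, as for OsCML10 (interaction −2.81), and in the lower row the reverse, as for the expansin (interaction 3.53).

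Gained responses, called in the mutant alone, included the largest negative interaction among described genes. LOC_Os02g47470 is a cytochrome P450 that the deposited annotation places in abscisic acid metabolism; P450 enzymes hydroxylate this drought and stress hormone in the first step of its breakdown. LOC_Os02g47470 stood at 1.41, 1.82 and 1.67 FPKM in the mutant at low Pi against 32.02, 47.7 and 7.85 at high Pi, and in WT at 81.2, 55.02 and 50.2 FPKM at low Pi against 44.6, 10.4 and 16.2 at high Pi. Mutant low-Pi libraries were far below all others, and the 6 high-Pi libraries were scattered, with the genotypes overlapping. LOC_Os02g47470 responded to low Pi by −3.21 in the mutant and by 1.58 in WT on the log2 scale (interaction −4.78, SE 0.83, adjusted p = 0.0116). The WT response was not called (adjusted p = 0.101), although its 2 groups did not overlap. LOC_Os04g34270, a serine/threonine-protein kinase receptor precursor, also fell in the mutant alone by its own test. LOC_Os04g34270 stood at 10.7, 9.48 and 19.01 FPKM in the mutant at low Pi against 75.7, 69.8 and 48.9 at high Pi, and in WT at 44.8, 60.6 and 55.3 FPKM at low Pi against 38.2, 38.5 and 60.3 at high Pi. The 3 mutant low-Pi libraries were the lowest and all other groups overlapped. LOC_Os04g34270 responded to low Pi by −2.26 in the mutant and by 0.25 in WT on the log2 scale (interaction −2.51, SE 0.37, adjusted p = 0.00587). LOC_Os04g47420, a transmembrane amino acid transporter, was expressed weakly. LOC_Os04g47420 stood at 1.01, 0.92 and 0.81 FPKM in the mutant at low Pi against 4.0, 5.08 and 5.27 at high Pi, and in WT at 2.21, 3.05 and 6.65 FPKM at low Pi against 2.17, 1.36 and 1.32 at high Pi. Its mutant low-Pi libraries were the lowest, and the highest of all values came from library 3 of WT at low Pi. LOC_Os04g47420 responded to low Pi by −1.59 in the mutant and by 0.84 in WT on the log2 scale (interaction −2.43, SE 0.37, adjusted p = 0.00653). Its WT response was just short of a call (adjusted p = 0.0561).

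Gained rises included an invertase and an F-box protein. LOC_Os01g22900 encodes a neutral/alkaline invertase, an enzyme that splits sucrose into glucose and fructose inside the cell. LOC_Os01g22900 stood at 67.5, 86.7 and 46.6 FPKM in the mutant at low Pi against 11.6, 15.8 and 10.8 at high Pi, and in WT at 30.2, 19.6 and 27.1 FPKM at low Pi against 101, 31.02 and 28.5 at high Pi. Mutant low-Pi libraries were above every mutant high-Pi library, and in WT the groups overlapped, with library 1 the highest at high Pi. LOC_Os01g22900 responded to low Pi by 2.28 in the mutant and by −0.80 in WT on the log2 scale (interaction 3.08, SE 0.57, adjusted p = 0.0154). OsFBX404 (LOC_Os11g09590) is an F-box protein, the subunit through which SCF ubiquitin ligases pick their substrates. OsFBX404 stood at 11.3, 32.7 and 76.4 FPKM in the mutant at low Pi against 0.0, 0.0 and 0.0 at high Pi, and in WT at 0.09, 0.0 and 0.0 FPKM at low Pi against 0.0, 0.0 and 0.0 at high Pi. It was thus listed at or near 0 in 9 libraries and present, with a wide spread, in the 3 mutant low-Pi libraries; no fold is given against groups listed at 0. OsFBX404 passed the filter on low values through these 3 libraries alone, so it had to differ and its test is not given; 5 of the 641 called genes passed the filter through a single group. LOC_Os03g29540, an ATP-dependent protease, responded by 2.08 in the mutant and −0.46 in WT (interaction 2.54, SE 0.41, adjusted p = 0.00962). LOC_Os01g68650, of a plant-specific family with the domain TIGR01615, responded by 1.66 in the mutant and −0.88 in WT (interaction 2.53, SE 0.38, adjusted p = 0.00607). Its WT response was just short of a call (adjusted p = 0.0511).

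Lost responses were called in WT and not in the mutant, which does not show that the mutant had none. LOC_Os08g40510, described as a KID-containing protein, had the largest interaction of the lost falls named here. LOC_Os08g40510 stood at 94.1, 99.7 and 98.9 FPKM in the mutant at low Pi against 76.4, 58.5 and 48.6 at high Pi, and in WT at 25.8, 17.96 and 13.3 FPKM at low Pi against 63.9, 80.2 and 54.9 at high Pi. The WT low-Pi libraries were the lowest, and the mutant low-Pi libraries the highest, of the 12. LOC_Os08g40510 responded to low Pi by 0.69 in the mutant and by −1.78 in WT on the log2 scale (interaction 2.47, SE 0.31, adjusted p = 0.00296). Its mutant response was just short of a call (adjusted p = 0.0513), and the mutant Pi groups did not overlap. LOC_Os01g41900 is a Myb transcription factor. LOC_Os01g41900 stood at 7.88, 6.5 and 8.05 FPKM in the mutant at low Pi against 5.73, 6.83 and 4.88 at high Pi, and in WT at 3.24, 2.28 and 1.51 FPKM at low Pi against 11.6, 11.5 and 8.72 at high Pi. WT libraries separated by Pi supply and mutant libraries overlapped. LOC_Os01g41900 responded to low Pi by 0.32 in the mutant and by −1.82 in WT on the log2 scale (interaction 2.14, SE 0.27, adjusted p = 0.00296). LOC_Os05g51690 has a CCT motif, found in CONSTANS-like and clock-related plant proteins. LOC_Os05g51690 stood at 16.2, 14.9 and 18.6 FPKM in the mutant at low Pi against 17.3, 16.5 and 17.8 at high Pi, and in WT at 27.6, 45.9 and 45.8 FPKM at low Pi against 10.3, 9.93 and 10.8 at high Pi. The 6 mutant libraries spanned a narrow range between the WT groups. LOC_Os05g51690 responded to low Pi by −0.06 in the mutant and by 1.81 in WT on the log2 scale (interaction −1.87, SE 0.23, adjusted p = 0.00296). Lost rises were also called in LOC_Os04g41310, a receptor-like kinase of the STRUBBELIG family (−0.37 in the mutant and 1.03 in WT, interaction −1.40, SE 0.20, adjusted p = 0.00545), and in LOC_Os03g52400, with the C-terminal domain of ribosomal protein L7/L12 (−0.53 in the mutant and 0.92 in WT, interaction −1.45, SE 0.26, adjusted p = 0.0143).

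**Figure D3:**
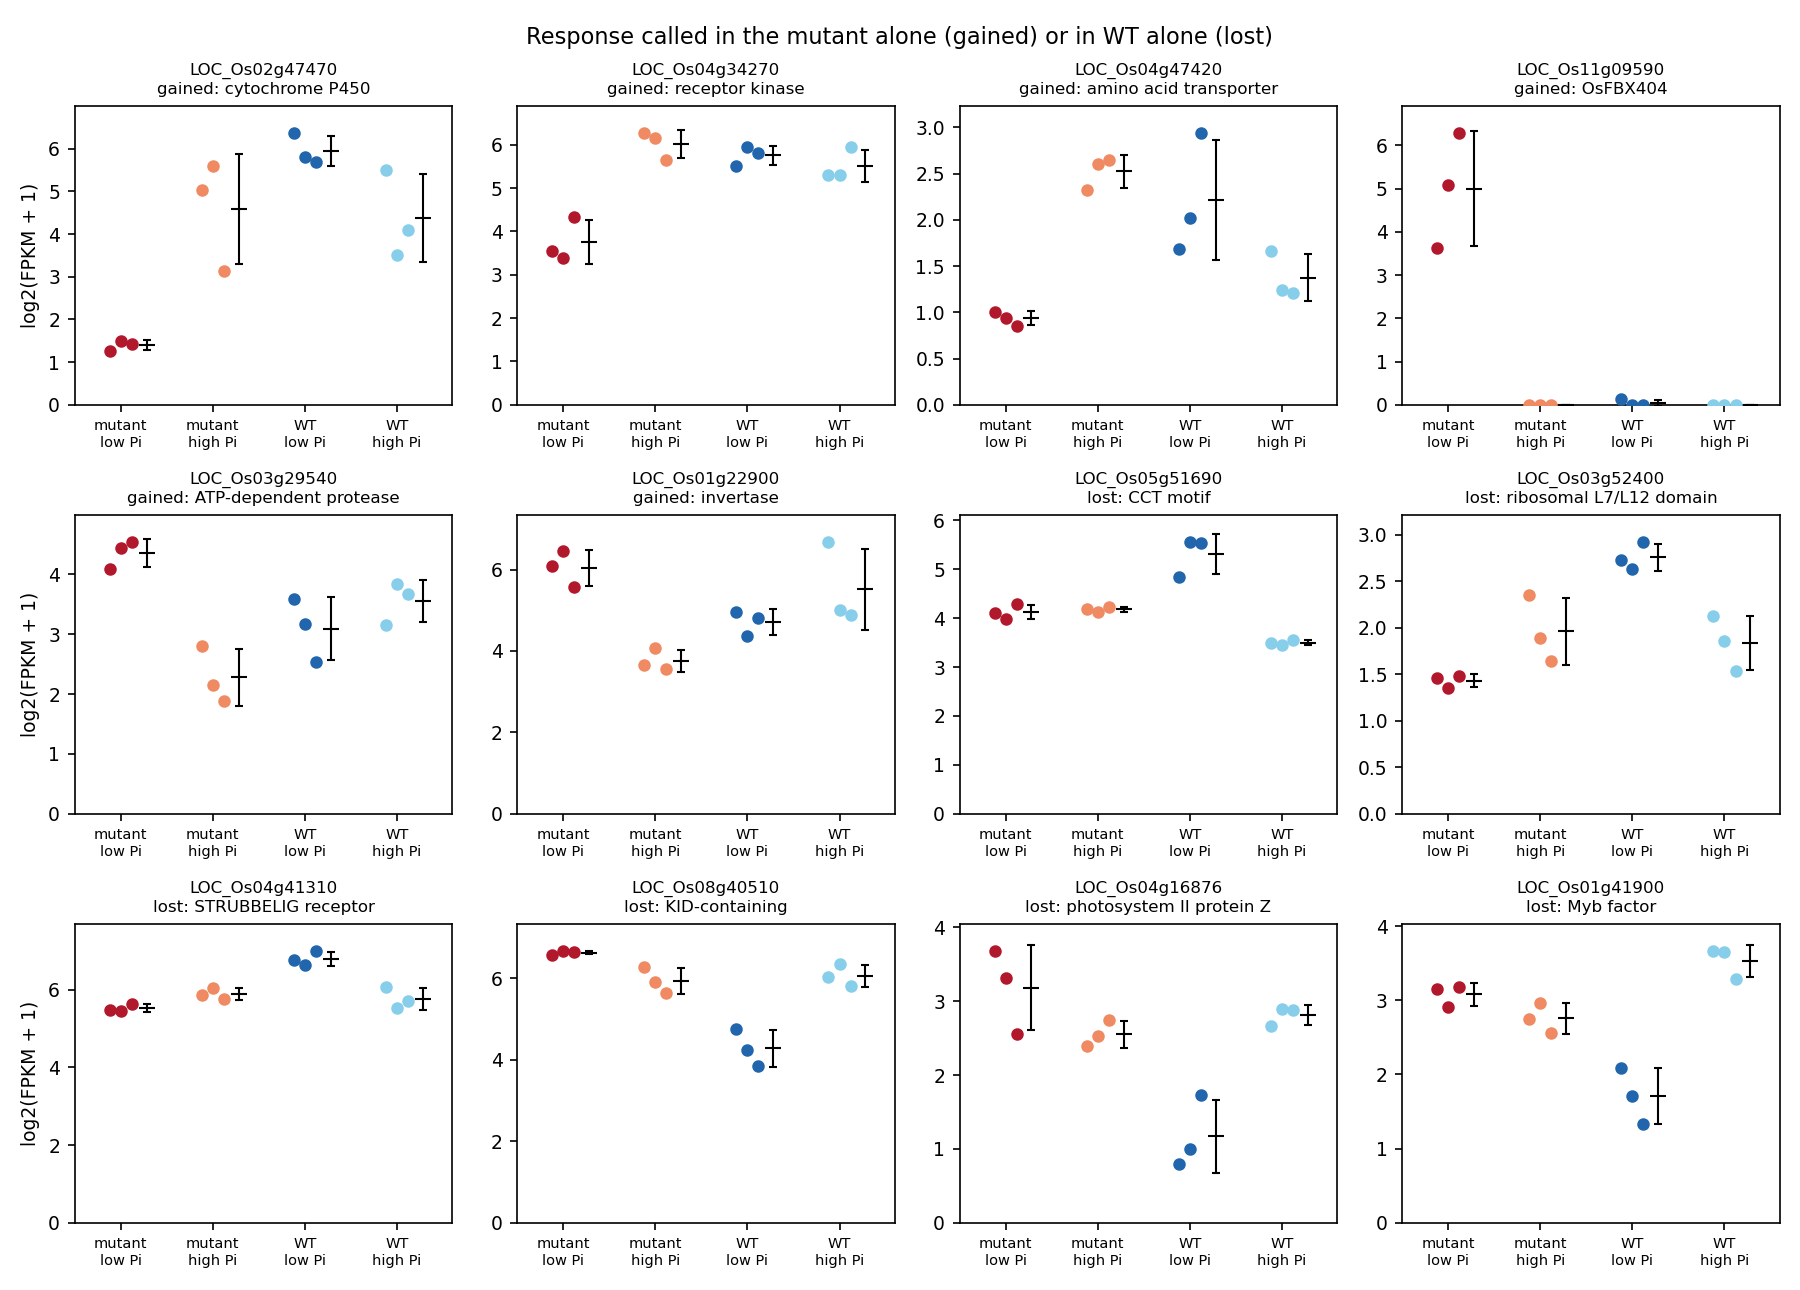
Level of 6 genes with a gained and 6 with a lost low-Pi response, as log2(FPKM + 1) in each library (points; mutant at low Pi, mutant at high Pi, WT at low Pi, WT at high Pi, 3 libraries each), with the mean and SD of the log2 values as bars. In the gained genes the mutant low-Pi libraries stand apart from the mutant high-Pi libraries, as for the cytochrome P450 LOC_Os02g47470 (response −3.21 in the mutant), and in the lost genes the WT groups are apart, as for LOC_Os05g51690 (response 1.81 in WT).

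In 14 genes with a called interaction, both responses were called with the same sign. LOC_Os04g59190 is a peroxidase precursor, of the secreted class that acts in cell walls. LOC_Os04g59190 stood at 7.4, 9.56 and 12.5 FPKM in the mutant at low Pi against 1.12, 1.41 and 1.09 at high Pi, and in WT at 5.2, 5.23 and 5.62 FPKM at low Pi against 3.0, 2.47 and 3.25 at high Pi. The Pi groups did not overlap in either genotype, and the mutant range was the wider. LOC_Os04g59190 responded to low Pi by 2.27 in the mutant and by 0.71 in WT on the log2 scale (interaction 1.56, SE 0.22, adjusted p = 0.00533). LOC_Os03g26210, a helix-loop-helix DNA-binding protein, fell in both genotypes. LOC_Os03g26210 stood at 2.63, 3.19 and 2.68 FPKM in the mutant at low Pi against 73.2, 56.9 and 88.4 at high Pi, and in WT at 4.39, 3.92 and 4.86 FPKM at low Pi against 48.4, 35.6 and 45.1 at high Pi. Mutant levels were above WT levels at high Pi and below them at low Pi, without overlap. LOC_Os03g26210 responded to low Pi by −4.25 in the mutant and by −3.02 in WT on the log2 scale (interaction −1.23, SE 0.23, adjusted p = 0.0147). Damped responses held in LOC_Os08g04840, a MYB family factor (−0.47 in the mutant and −1.55 in WT, interaction 1.08, SE 0.20, adjusted p = 0.0142), and in LOC_Os02g33770, a homeodomain protein (0.82 in the mutant and 2.39 in WT, interaction −1.57, SE 0.23, adjusted p = 0.00588).

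Proteins with a DUF581 domain, also called FCS-like zinc finger (FLZ) proteins, are known in Arabidopsis as partners of SnRK1, the SNF1-related kinase that senses low cellular energy. Of 17 tested DUF581 loci, 7 (41.2%) had a called interaction, all negative, against 3.64% of all genes. Their median interaction was −0.46, against −0.05 over all genes, from a median response of −0.51 in the mutant and 0.37 in WT. The list was drawn up after its values were seen. LOC_Os04g49660 stood at 5.2, 5.65 and 12.4 FPKM in the mutant at low Pi against 24.04, 23.1 and 19.8 at high Pi, and in WT at 37.96, 37.4 and 53.8 FPKM at low Pi against 9.74, 10.6 and 12.2 at high Pi. The WT low-Pi libraries were the highest and the mutant low-Pi libraries included the lowest. LOC_Os04g49660 responded to low Pi by −1.50 in the mutant and by 1.88 in WT on the log2 scale (interaction −3.38, SE 0.36, adjusted p = 0.00103). LOC_Os09g20240 stood at 39.8, 29.1 and 33.4 FPKM in the mutant at low Pi against 126, 141 and 123 at high Pi, and in WT at 54.2, 82.2 and 102 FPKM at low Pi against 53.9, 64.03 and 54.9 at high Pi. Here WT groups overlapped and the mutant groups were far apart. LOC_Os09g20240 responded to low Pi by −1.91 in the mutant and by 0.42 in WT on the log2 scale (interaction −2.33, SE 0.28, adjusted p = 0.00273). LOC_Os08g31510 rose in WT alone by its own test (−0.60 in the mutant and 0.97 in WT, interaction −1.57, SE 0.27, adjusted p = 0.0119). LOC_Os04g49620 was called too (interaction −2.29, SE 0.49, adjusted p = 0.0285) but not in 7 of the 12 fits without 1 library; it, LOC_Os04g49660, LOC_Os04g49670 and LOC_Os04g49680 have neighbouring identifiers; the sources used here do not say whether such loci share reads. The list's count was 3 without library 1 or 2 of the mutant at low Pi, library 2 of the mutant at high Pi or library 3 of WT at high Pi and 4 without library 1 of the mutant at high Pi, library 3 of WT at low Pi or library 2 of WT at high Pi.

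The kinases described as SNF1-type are a broad class, and the descriptions do not say which of them are SnRK1; trehalose-6-phosphate synthases are named for making trehalose 6-phosphate, a sucrose signal that inhibits SnRK1 in plants. Of 30 tested kinases of the SNF1-type class, 5 (16.7%) had a called interaction (3.64% of all genes), 1 higher and 4 lower, with a list median of −0.33. LOC_Os07g48100 stood at 35.9, 37.9 and 38.3 FPKM in the mutant at low Pi against 93.1, 84.2 and 65.1 at high Pi, and in WT at 76.04, 85.8 and 97.3 FPKM at low Pi against 54.9, 38.3 and 59.4 at high Pi. The mutant low-Pi libraries were at the bottom of the range and the WT low-Pi libraries overlapped the mutant high-Pi ones. LOC_Os07g48100 responded to low Pi by −1.08 in the mutant and by 0.77 in WT on the log2 scale (interaction −1.84, SE 0.24, adjusted p = 0.00338). LOC_Os12g41090 crossed over in the same direction at low levels (−0.84 in the mutant and 0.94 in WT, interaction −1.78, SE 0.33, adjusted p = 0.0156). LOC_Os06g35160 lost a fall (0.07 in the mutant and −0.76 in WT, interaction 0.83, SE 0.15, adjusted p = 0.0154). The kinase count was 3 without library 1, 2 or 3 of the mutant at low Pi, library 2 of the mutant at high Pi, library 3 of WT at low Pi or library 2 or 3 of WT at high Pi. Of 5 tested loci described as trehalose-6-phosphate synthase, 2 had a called interaction, both positive (list median 0.20). LOC_Os02g54820 stood at 37.9, 40.7 and 37.2 FPKM in the mutant at low Pi against 11.3, 13.5 and 7.65 at high Pi, and in WT at 16.4, 8.96 and 5.46 FPKM at low Pi against 35.2, 35.6 and 23.9 at high Pi. The groups did not overlap within a genotype, and the levels of the mutant at low Pi and WT at high Pi were the upper ones. LOC_Os02g54820 responded to low Pi by 1.78 in the mutant and by −1.63 in WT on the log2 scale (interaction 3.40, SE 0.43, adjusted p = 0.00296). LOC_Os05g44210 responded by 0.76 in the mutant and −0.31 in WT (interaction 1.07, SE 0.17, adjusted p = 0.00815). Both lists were drawn up after values were seen.

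**Figure D4:**
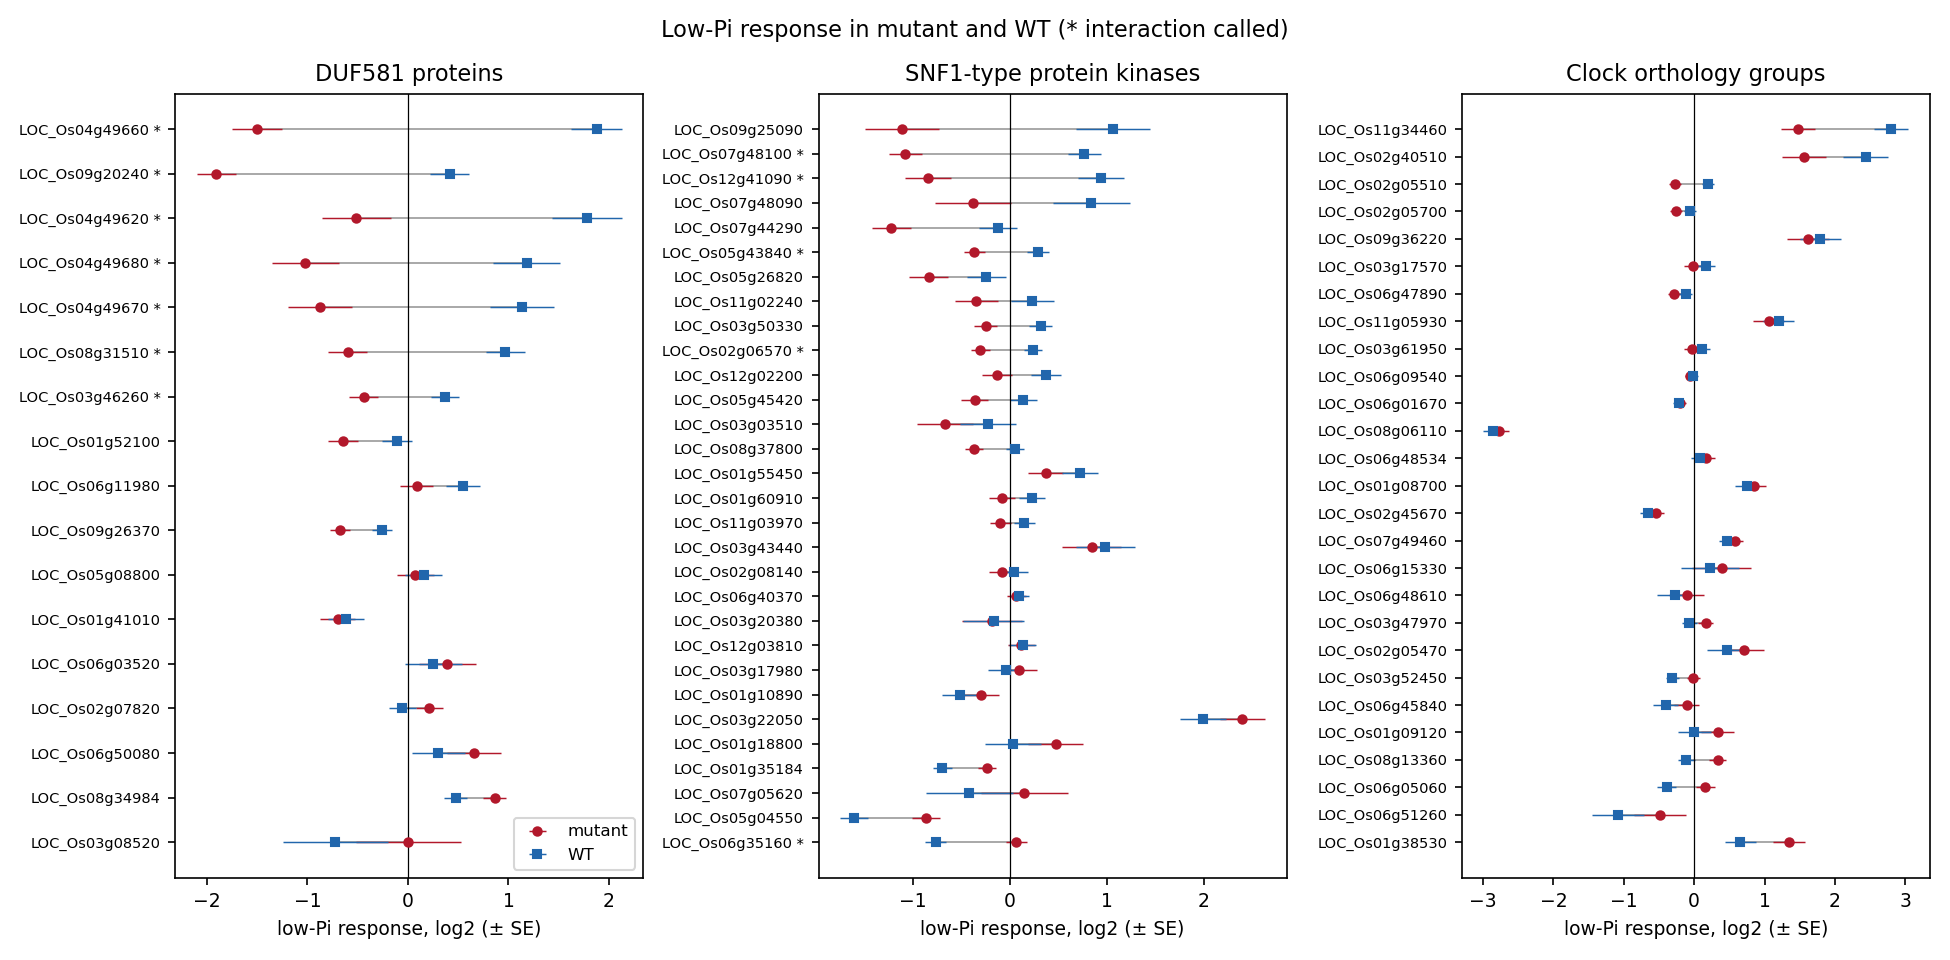
Low-Pi response (log2, low minus high Pi, ± SE) of each tested DUF581 locus (17), SNF1-type kinase (30) and locus of the clock orthology groups (27), in the mutant (circles) and in WT (squares); an asterisk marks a called interaction. In 7 DUF581 loci the mutant value lies to the left of the WT value with a called difference, and the clock panel holds 0 called differences among 27 loci.

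F-box proteins with kelch repeats and BTB proteins are substrate adaptors of ubiquitin ligases. The kelch list also holds loci described without an F-box, such as LOC_Os06g49750. Of 33 tested loci described with kelch repeats, 9 (27.3%) had a called interaction, 6 higher and 3 lower, against 3.64% of all genes (list median −0.15). LOC_Os06g49750 stood at 3.46, 3.11 and 2.76 FPKM in the mutant at low Pi against 8.03, 9.78 and 9.33 at high Pi, and in WT at 12.01, 12.2 and 13.4 FPKM at low Pi against 7.42, 5.35 and 7.35 at high Pi. This kelch motif locus had its mutant low-Pi libraries at the bottom and its WT low-Pi libraries at the top. LOC_Os06g49750 responded to low Pi by −1.29 in the mutant and by 0.82 in WT on the log2 scale (interaction −2.11, SE 0.18, adjusted p = 0.000349). OsFBK25 (LOC_Os11g14140) crossed over the other way. OsFBK25 stood at 84.2, 114 and 106 FPKM in the mutant at low Pi against 63.7, 40.9 and 52.6 at high Pi, and in WT at 40.1, 21.5 and 19.9 FPKM at low Pi against 63.7, 77.8 and 69.6 at high Pi. Mutant low-Pi libraries were the highest and WT low-Pi libraries the lowest. OsFBK25 responded to low Pi by 0.95 in the mutant and by −1.41 in WT on the log2 scale (interaction 2.36, SE 0.34, adjusted p = 0.0055). OsFBK14 (LOC_Os04g31120) lost a fall (0.26 in the mutant and −1.87 in WT, interaction 2.13, SE 0.38, adjusted p = 0.0127), and OsFBK18 (LOC_Os07g05880) gained a rise (0.74 in the mutant and −0.28 in WT, interaction 1.02, SE 0.15, adjusted p = 0.00557). The kelch count was 4 without library 2 of the mutant at low Pi, library 2 of the mutant at high Pi, library 3 of WT at low Pi or library 2 of WT at high Pi and 5 without library 3 of the mutant at low Pi or library 3 of WT at high Pi. Of 54 tested BTB loci, 4 (7.41%) had a called interaction, all positive, against 3.64% of all genes (list median −0.05, against −0.05 over all genes), so the share is close to that over all genes; 3 of them were lost falls in the NPH3-type subfamily, named after a phototropism protein. BTBN5 (LOC_Os03g10880) stood at 72.2, 66.6 and 69.1 FPKM in the mutant at low Pi against 65.3, 74.6 and 72.1 at high Pi, and in WT at 30.6, 19.9 and 21.5 FPKM at low Pi against 76.96, 70.2 and 79.8 at high Pi. Mutant libraries overlapped between Pi levels, and WT low-Pi libraries lay below all others. BTBN5 responded to low Pi by −0.03 in the mutant and by −1.64 in WT on the log2 scale (interaction 1.61, SE 0.19, adjusted p = 0.00273). BTBN20 (LOC_Os11g02610) responded by 0.04 in the mutant and −1.32 in WT (interaction 1.36, SE 0.21, adjusted p = 0.00799) and BTBN22 (LOC_Os12g02530) by 0.07 in the mutant and −1.26 in WT (interaction 1.33, SE 0.22, adjusted p = 0.00974); if these are near-identical copies, reads shared between them would make the pair less independent. Both lists were drawn up after values were seen.

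Zinc finger proteins of the CCT and B-box type include regulators of flowering and light responses. Of 32 tested loci on the CCT and B-box list, 4 (12.5%) had a called interaction, 2 higher and 2 lower, against 3.64% of all genes (list median 0.16), LOC_Os05g51690 among them. LOC_Os02g39710 stood at 93.2, 91.01 and 98.4 FPKM in the mutant at low Pi against 109, 81.9 and 76.00 at high Pi, and in WT at 41.8, 28.9 and 22.3 FPKM at low Pi against 89.8, 132 and 102 at high Pi. Its mutant libraries overlapped between Pi levels while the WT low-Pi libraries were the lowest. LOC_Os02g39710 responded to low Pi by 0.10 in the mutant and by −1.79 in WT on the log2 scale (interaction 1.89, SE 0.30, adjusted p = 0.00847). LOC_Os02g49880 gained a rise (1.82 in the mutant and −0.93 in WT, interaction 2.75, SE 0.45, adjusted p = 0.00978). LOC_Os02g08150 crossed over downward (−0.47 in the mutant and 0.59 in WT, interaction −1.06, SE 0.20, adjusted p = 0.0183). The call of LOC_Os02g08150 ended without library 2 of the mutant at low Pi or library 2 of WT at high Pi.

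Among 27 tested loci of the clock orthology groups 0 had a called interaction, which for so few loci is near the 3.64% of all genes (list median 0.10), a list drawn up after values were seen, and several moved in the same direction at low Pi in both genotypes. LOC_Os08g06110, in the orthology group of the morning clock factor LHY, stood at 72.6, 72.6 and 60.7 FPKM in the mutant at low Pi against 448, 496 and 483 at high Pi. In WT it stood at 47.9, 32.2 and 32.8 FPKM at low Pi against 295, 275 and 254 at high Pi. It fell by 2.78 in the mutant and by 2.85 in WT on the log2 scale, with a 95% interval of the difference from −0.38 to 0.53. LOC_Os01g08700 (GIGANTEA, a clock and flowering protein) responded by 0.85 in the mutant and 0.75 in WT, with an interval of −0.43 to 0.64. Pseudo-response regulators are clock repressors. The 3 loci named here and placed in their orthology groups responded by 1.56 in the mutant and 2.44 in WT (LOC_Os02g40510, interval −1.86 to 0.11), by 1.62 in the mutant and 1.79 in WT (LOC_Os09g36220, interval −1.09 to 0.74) and by 1.06 in the mutant and 1.21 in WT (LOC_Os11g05930, interval −0.83 to 0.54). The loci named so far were chosen outside the rule for named genes, and others on the list did not move alike. LOC_Os11g34460, OsFBO10, had the smallest p of the list (1.48 in the mutant and 2.80 in WT, interaction −1.32, SE 0.35, adjusted p = 0.0621). The other locus that the rule picked, the GATA factor LOC_Os02g05510, had values of opposite sign (−0.27 in the mutant and 0.20 in WT, interaction −0.46, SE 0.12, adjusted p = 0.0652). With 1 library left out the number of calls in this list was 1 without library 1 of WT at high Pi and 2 without library 1 of WT at low Pi, and 0 in the other 10 fits. The sources used here do not give the hour at which leaves were taken.

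Histone transcripts leaned one way as a group. Of 39 tested histone loci, 8 (20.5%) had a called interaction, all negative, against 3.64% of all genes, and 35 had a negative value. The list median was −1.13, against −0.05 over all genes, with a median response of −0.33 in the mutant and 0.69 in WT. After median-of-ratios scaling the median interaction was −1.06 in the list and 0.02 over all genes. The core histone locus LOC_Os07g36130 stood at 18.96, 17.1 and 16.9 FPKM in the mutant at low Pi against 31.6, 43.97 and 59.4 at high Pi, and in WT at 36.9, 52.7 and 98.4 FPKM at low Pi against 21.1, 17.6 and 26.6 at high Pi. Low- and high-Pi libraries separated in both genotypes, in opposite directions. LOC_Os07g36130 responded to low Pi by −1.26 in the mutant and by 1.39 in WT on the log2 scale (interaction −2.65, SE 0.44, adjusted p = 0.00984). LOC_Os09g38020, also a core histone, stood at 141, 142 and 140.2 FPKM in the mutant at low Pi against 296, 284 and 312 at high Pi, and in WT at 209.9, 262 and 634 FPKM at low Pi against 107, 120.2 and 145 at high Pi. The mutant low-Pi libraries were nearly equal, whereas WT low-Pi library 3 was far above the other 2 of its group. LOC_Os09g38020 responded to low Pi by −1.07 in the mutant and by 1.40 in WT on the log2 scale (interaction −2.47, SE 0.44, adjusted p = 0.0123). LOC_Os06g04030, a histone H3, gained a fall (−1.39 in the mutant and 0.88 in WT, interaction −2.26, SE 0.40, adjusted p = 0.0123). LOC_Os12g25120, a core histone, did so too (−1.49 in the mutant and 0.86 in WT, interaction −2.35, SE 0.46, adjusted p = 0.021). The call of LOC_Os12g25120 ended without library 2 of the mutant at low Pi, of the mutant at high Pi or of WT at high Pi.

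Summed over the 39 loci, histone transcripts reached 3626, 3094 and 3522 FPKM in the mutant at low Pi against 4270, 4843 and 5892 at high Pi, and in WT 3641, 4303 and 7492 FPKM at low Pi against 2784, 3212 and 3075 at high Pi. WT low-Pi library 3 stood above every other library, and in the fit without it the number of called loci was 8, with a list median of −0.77 and a median WT response of 0.34. The count was 3 without library 2 of the mutant at low Pi or library 2 of WT at high Pi and 4 without library 1 of the mutant at low Pi or library 2 of the mutant at high Pi and 5 without library 3 of WT at high Pi and 19 without library 1 of WT at low Pi. Transcripts of 103 other replication and mitosis genes summed to 1121 to 1242 FPKM in all 12 libraries. Among these genes, 1 (0.971%, against 3.64% of all genes) had a called interaction, the cyclin-dependent kinase inhibitor LOC_Os02g52480 (interaction −0.57, SE 0.12, adjusted p = 0.0243), called no longer in 6 of the fits without 1 library. That count was 0 without library 2 of the mutant at low Pi, library 2 of the mutant at high Pi, library 3 of WT at low Pi or library 2 or 3 of WT at high Pi and 2 without library 1 or 3 of the mutant at high Pi and 3 without library 1 of WT at high Pi and 4 without library 1 of WT at low Pi, and 3 after upper-quartile scaling, and the list median was −0.04 (0.03 after median-of-ratios scaling). Histone loci of the same class can be near-identical in sequence, so how reads were divided among such loci is uncertain. Whether the share of dividing cells moved with these values was not tested.

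**Figure D5:**
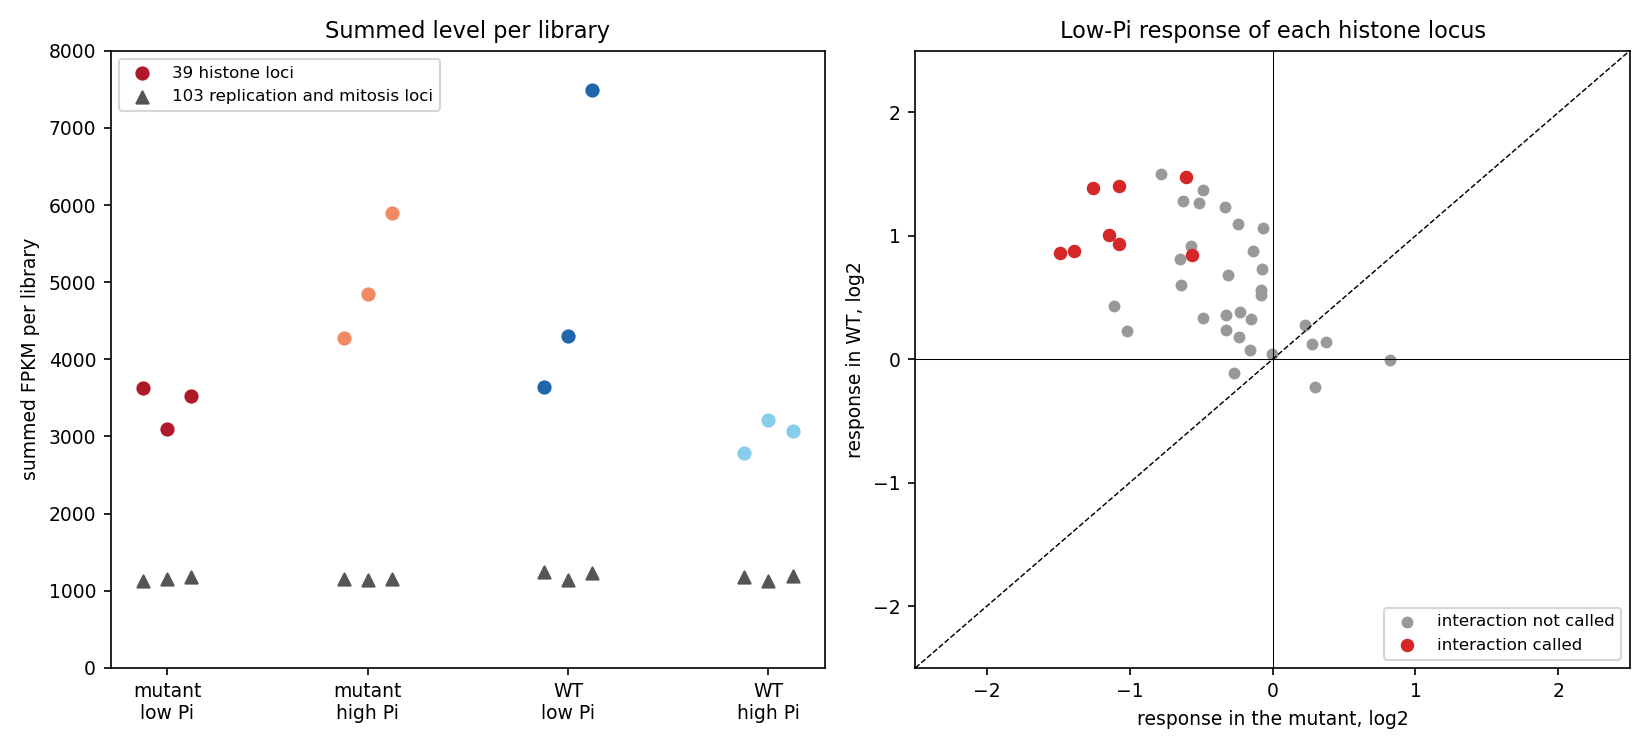
Left, FPKM summed over 39 histone loci (circles) and over 103 replication and mitosis loci (triangles) in each library, for mutant at low Pi, mutant at high Pi, WT at low Pi and WT at high Pi; right, low-Pi response of each histone locus in the mutant (x axis) and WT (y axis), log2, with a dashed line of equal response. The histone sum is highest in WT low-Pi library 3 (7492 FPKM) while the replication sum stays between 1121 and 1242 FPKM, and 35 of 39 loci lie above the dashed line.

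Called loci of mitochondrial import, the tricarboxylic acid cycle and translation initiation all had a negative interaction, most of them as gained falls; for all genes tested the share called was 3.64%. TIM proteins bring proteins across or into the inner mitochondrial membrane. Of 17 tested loci described as mitochondrial import inner membrane translocases, 4 (23.5%) had a called interaction, all negative (list median −0.54). LOC_Os11g03710 responded to low Pi by −0.71 in the mutant and by 0.65 in WT on the log2 scale (interaction −1.36, SE 0.25, adjusted p = 0.0154). LOC_Os03g18500 responded to low Pi by −0.84 in the mutant and by 0.38 in WT on the log2 scale (interaction −1.22, SE 0.22, adjusted p = 0.0147). Of 23 tested loci annotated to the tricarboxylic acid cycle, which oxidises acetyl groups for respiration, 5 (21.7%) were called, all negative and all gained falls (list median −0.37). LOC_Os04g32330, the succinyltransferase of the 2-oxoglutarate dehydrogenase complex, stood at 18.4, 18.03 and 21.98 FPKM in the mutant at low Pi against 34.8, 34.5 and 33.5 at high Pi, and in WT at 28.2, 33.4 and 38.1 FPKM at low Pi against 29.99, 22.96 and 26.97 at high Pi. The mutant low-Pi libraries were the lowest, and WT groups overlapped. LOC_Os04g32330 responded to low Pi by −0.79 in the mutant and by 0.31 in WT on the log2 scale (interaction −1.09, SE 0.18, adjusted p = 0.00974). Citrate synthase LOC_Os02g10070, which catalyses entry into the cycle, responded by −0.43 in the mutant and 0.33 in WT (interaction −0.76, SE 0.14, adjusted p = 0.0154). Its WT response was just short of a call (adjusted p = 0.0529). Of 52 tested translation initiation factor loci, 9 (17.3%) were called, all negative and 8 of them gained falls (list median −0.17). LOC_Os04g42140, a subunit of the cap-binding complex iso-4F, stood at 20.1, 20.1 and 21.00 FPKM in the mutant at low Pi against 36.3, 35.5 and 39.8 at high Pi, and in WT at 28.2, 29.5 and 31.9 FPKM at low Pi against 27.6, 22.1 and 27.1 at high Pi. Mutant low-Pi libraries were the lowest and the mutant high-Pi libraries the highest. LOC_Os04g42140 responded to low Pi by −0.83 in the mutant and by 0.22 in WT on the log2 scale (interaction −1.05, SE 0.14, adjusted p = 0.00338). LOC_Os02g24330, initiation factor 4B, responded by −0.54 in the mutant and 0.34 in WT (interaction −0.88, SE 0.15, adjusted p = 0.00984). Its WT response was just short of a call (adjusted p = 0.0502). Leaving out 1 library gave a translocase count of 2 without library 1 or 2 of the mutant at low Pi, library 1 of the mutant at high Pi, library 2 or 3 of WT at low Pi or library 2 or 3 of WT at high Pi. The cycle count was 2 without library 1 or 2 of the mutant at low Pi, library 2 of the mutant at high Pi, library 2 or 3 of WT at low Pi or library 2 of WT at high Pi and 3 without library 1 or 3 of the mutant at high Pi or library 3 of WT at high Pi. The initiation factor count was 5 without library 2 of the mutant at low Pi or library 3 of WT at low Pi. These 3 lists were drawn up after values were seen.

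Of 70 tested photosystem and light-harvesting loci, 4 (5.71%) had a called interaction, all positive, a share near the 3.64% of all genes (list median 0.20), from a median response of 0.14 in the mutant and −0.40 in WT. LOC_Os04g16876, photosystem II protein Z, stood at 11.8, 8.99 and 4.89 FPKM in the mutant at low Pi against 4.24, 4.76 and 5.72 at high Pi, and in WT at 0.73, 0.99 and 2.31 FPKM at low Pi against 5.32, 6.47 and 6.35 at high Pi. The WT low-Pi libraries were the lowest and the mutant groups overlapped. LOC_Os04g16876 responded to low Pi by 0.63 in the mutant and by −1.64 in WT on the log2 scale (interaction 2.27, SE 0.40, adjusted p = 0.0119). LOC_Os09g04680, a P680 chlorophyll A apoprotein, responded by 0.38 in the mutant and −0.71 in WT (interaction 1.09, SE 0.22, adjusted p = 0.0241); 6 of the fits without 1 library did not call it. Both proteins are encoded in the chloroplast genome, and reads from that genome cannot be told apart here from reads of nuclear copies. The count was 1 without library 1 or 2 of the mutant at low Pi, library 2 of the mutant at high Pi, library 3 of WT at low Pi or library 2 or 3 of WT at high Pi and 2 without library 1 of the mutant at high Pi or library 2 of WT at low Pi and 19 without library 1 of WT at low Pi.

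Among 3 tested SPX and signalling loci, 16 phosphate transport loci, 19 phosphatases and phosphodiesterases and 20 loci of membrane lipid remodelling, 0 had a called interaction, which for lists of this size is near the 3.64% of all genes, with list medians of −0.61, 0.05, −0.17 and 0.07. The SPX domain locus LOC_Os02g10780 stood at 38.4, 23.6 and 32.96 FPKM in the mutant at low Pi against 7.59, 8.63 and 5.39 at high Pi, and in WT at 16.6, 36.3 and 106 FPKM at low Pi against 3.93, 7.48 and 5.54 at high Pi. It rose at low Pi in both genotypes, and the WT low-Pi libraries were widely spread, with library 3 the highest. LOC_Os02g10780 responded to low Pi by 1.99 in the mutant and by 2.67 in WT on the log2 scale (interaction −0.68, SE 0.70, adjusted p = 0.671). The 95% interval of that difference, −2.22 to 0.86, includes no difference and rises several fold smaller, or somewhat larger, in the mutant. LOC_Os06g40120, another SPX locus, responded by 1.29 in the mutant and 1.91 in WT (interval −1.98 to 0.76). The phosphate translocator LOC_Os08g25624 stood at 90.8, 86.3 and 88.7 FPKM in the mutant at low Pi against 16.6, 15.1 and 20.3 at high Pi, and in WT at 115, 125 and 134 FPKM at low Pi against 36.8, 38.9 and 34.8 at high Pi. Low-Pi libraries were above all high-Pi libraries in both genotypes. LOC_Os08g25624 responded to low Pi by 2.30 in the mutant and by 1.74 in WT on the log2 scale (interaction 0.56, SE 0.15, adjusted p = 0.0657). Responses called in the transport list went both ways, with 4 loci rising and 4 falling in the mutant, and 3 and 2 in WT. The inorganic phosphate transporter LOC_Os02g38020 fell in both genotypes (−0.62 in the mutant and −1.18 in WT). The mitochondrial phosphate carrier LOC_Os02g52860 responded by −1.33 in the mutant and −0.19 in WT (interaction −1.135, SE 0.31, adjusted p = 0.0715). Purple acid phosphatase LOC_Os01g56880, of the enzymes that free Pi from organic esters, responded by 1.38 in the mutant and 1.00 in WT (interval −0.12 to 0.88). In its list 4 loci rose and 3 fell in the mutant, and 4 rose and 2 fell in WT. The smallest p of that list belonged to the phosphodiesterase LOC_Os03g40670 (0.14 in the mutant and 0.74 in WT, interaction −0.60, SE 0.29, adjusted p = 0.288). The digalactosyldiacylglycerol synthase LOC_Os02g33580, which makes a galactolipid, had the smallest p of the lipid loci (0.05 in the mutant and −0.44 in WT, interaction 0.49, SE 0.14, adjusted p = 0.0806). Another locus with that description, LOC_Os11g05990, fell in both genotypes (−0.95 in the mutant and −1.50 in WT). In the lipid list 2 loci rose and 2 fell in the mutant, and 3 rose and 3 fell in WT. With 1 library left out, the phosphate transport list had 1 without library 3 of the mutant at high Pi, library 1 of WT at low Pi or library 1 of WT at high Pi, and the phosphatase list 1 without library 1 of WT at high Pi; the SPX and lipid lists had 0 in all 12 fits.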

How the data were processed

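mRNA of rice leaf blades was sequenced from 1 µg of RNA per library, per the labels' protocols. The authors deposited FPKM per gene and library in 4 tables of 32846 genes, per the file headers; every library stood in 2 tables with identical values (12 of 12). CASAVA 2.17, HISAT2 2.0.5 and StringTie 1.3.6 are named in the submitters' processing notes. The sources used here do not give the genome build, the annotation or the handling of multi-mapping reads. The tables also held 2 unlabelled columns with 6 filled cells, which were not used. No counts were used, so depth and counting error are unknown.

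Values were joined by gene, transformed as log2(FPKM + 1) and fitted with limma 3.58.1 in R 4.3.3 (4 group means, 12 libraries, empirical Bayes with a mean trend, no block), with 5 contrasts: the interaction, the low-Pi response in each genotype and mutant against WT at each Pi level. Calls were made at a Benjamini-Hochberg adjusted p below 0.05 over 17630 genes that reached FPKM 1 in 3 or more libraries. Folds on this scale understate changes of weakly expressed genes. On simulated data, 200 of the 17630 genes, drawn from the better expressed ones alone, were given an interaction. The fit called 68 of 100 genes of size 1 and 94 of 100 of size 2 (log2), and 11 of 17430 unchanged genes. The simulated noise was independent between genes. The recovery therefore does not cover weakly expressed genes, and the 11 calls do not cover shifts that many genes of a library share. Python 3.11.15, pandas 2.3.3, numpy 2.4.6 and matplotlib 3.10.9 were used.

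Named genes were LOC_Os06g51220, the 12 largest interactions of each sign, up to 8 crossover genes and up to 3 per other class and sign (all called in every fit, with an informative description), and up to 4 members with the smallest p per list described; exceptions are marked, and a gene that the rule picked is not reported here. The members and lists were chosen with earlier results of these data known: 46 lists of description patterns, some patterns corrected after their matches were seen, and 9 lists added after values were seen. Of the 46, 13 held no called gene. The supplied gene table (assembly ASM3414082v1) matched 0 identifiers, so names come from the descriptions in the files, 9758 of which read only expressed protein, and sequences and coordinates were not used here. Alternatives were pseudocounts of 0.1 and 5, no filter, a filter at FPKM 5, median-of-ratios and upper-quartile scaling, a replicate block, no mean trend, and each library left out in turn.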

Additional observations from a re-analysis of the deposited data

Results flagged for a closer look

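A test of the difference between the genotypes in their low-Pi response picked out 641 genes (adjusted p below 0.05). For those named above other than OsFBX404, the mutant response minus the WT response on the log2 scale was as follows. Among crossover genes that rose in the mutant and fell in WT, the difference was 5.64 in LOC_Os06g50230, 4.57 in LOC_Os05g27780, 4.42 in LOC_Os04g49370, 4.31 in LOC_Os02g45930, 3.53 in LOC_Os03g04020 and 3.40 in LOC_Os02g54820. It was 3.07 in LOC_Os09g37330, 2.90 in LOC_Os11g25780, 2.59 in LOC_Os03g51650 and 2.36 in LOC_Os11g14140. Among crossover genes that fell in the mutant and rose in WT, the difference was −3.38 in LOC_Os04g49660, −2.84 in LOC_Os09g29460, −2.81 in LOC_Os01g72100, −2.65 in LOC_Os07g36130, −2.47 in LOC_Os09g38020 and −2.41 in LOC_Os01g71970. It was −2.26 in LOC_Os08g37370, −2.25 in LOC_Os04g33030, −2.11 in LOC_Os06g49750, −1.84 in LOC_Os07g48100, −1.78 in LOC_Os12g41090 and −1.36 in LOC_Os11g03710. It was −1.06 in LOC_Os02g08150. Among lost responses with a positive difference, the difference was 2.47 in LOC_Os08g40510, 2.27 in LOC_Os04g16876, 2.14 in LOC_Os01g41900, 2.13 in LOC_Os04g31120, 1.89 in LOC_Os02g39710 and 1.61 in LOC_Os03g10880. It was 1.36 in LOC_Os11g02610, 1.33 in LOC_Os12g02530, 1.09 in LOC_Os09g04680 and 0.83 in LOC_Os06g35160. Among lost responses with a negative difference, the difference was −2.29 in LOC_Os04g49620, −1.87 in LOC_Os05g51690, −1.57 in LOC_Os08g31510, −1.45 in LOC_Os03g52400, −1.40 in LOC_Os04g41310 and −0.57 in LOC_Os02g52480. Among gained responses with a positive difference, the difference was 3.08 in LOC_Os01g22900, 2.75 in LOC_Os02g49880, 2.54 in LOC_Os03g29540, 2.53 in LOC_Os01g68650, 1.07 in LOC_Os05g44210 and 1.02 in LOC_Os07g05880. Among gained responses with a negative difference, the difference was −4.78 in LOC_Os02g47470, −2.51 in LOC_Os04g34270, −2.43 in LOC_Os04g47420, −2.35 in LOC_Os12g25120, −2.33 in LOC_Os09g20240 and −2.26 in LOC_Os06g04030. It was −1.22 in LOC_Os03g18500, −1.09 in LOC_Os04g32330, −1.05 in LOC_Os04g42140, −0.88 in LOC_Os02g24330 and −0.76 in LOC_Os02g10070. For the amplified rise, the difference was 1.56 in LOC_Os04g59190. For the amplified fall, the difference was −1.23 in LOC_Os03g26210. For the damped fall, the difference was 1.08 in LOC_Os08g04840. For the damped rise, the difference was −1.57 in LOC_Os02g33770. Their causes were not tested.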

How the results depend on the processing

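Over the 12 fits without 1 library, the genes with a called interaction numbered 259 to 878, those higher 119 to 434 and those lower 140 to 541. Crossover genes numbered 57 to 162, lost 41 to 222, gained 134 to 430, damped 1 to 14, amplified 2 to 12 and neither 0 to 60. Responses called numbered 1984 to 3321 in the mutant and 1147 to 2622 in WT, and genes differing between mutant and WT 1274 to 3073 at low Pi and 177 to 851 at high Pi. Without a filter on low values, 366 interactions were called (158 higher, 208 lower; 83 crossover, 72 lost, 194 gained, 4 amplified, 10 neither); more genes were tested there. With the replicate number as a block, 391 were called (163 higher, 228 lower; 87 lost, 195 gained, 3 amplified, 3 neither), 381 of them among the 641, and 312 genes differed at high Pi. No clear pairing by number was seen: over 18 pairs of same-numbered libraries the correlation of deviations ran from −0.383 to 0.344, 3 were above 0.1, and a library correlated best with its own number in 8 of 36 comparisons. With 3 libraries per group, these correlations cannot exclude that libraries of the same number were handled together. A filter at FPKM 5 gave 417 genes differing at high Pi and 2 damped genes, a pseudocount of 0.1 gave 2 damped genes, median-of-ratios scaling 7 damped genes, and no mean trend 6 amplified and 12 neither. Median-of-ratios scaling shifted the median interaction by 0.06 and shared 567 called genes with the deposited scale, upper-quartile scaling 604. The causes of these changes were not tested.

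Of 61 named genes with a called interaction, 56 were called in all 12 fits without 1 library, and across their 447 fits under the other settings 0 lost the call. Over all named and called genes and all settings, 1190 of 1217 fits kept the direction and the call, 27 lost the call and 0 turned the direction. Most named genes were picked because all 12 fits called them, so these counts do not measure how stable the calls are. Of all 641 called genes, 238 were called in all 12 fits. Of named genes without a call, 10 fits gave one. Sequencing depth is unknown, so no limit of detection could be set for single genes, and with 3 libraries per group the call of a gene depends on the spread of each.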
